A study of Rattus norvegicus with 12 samples.

Results

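The complement components and receptors described here are 10 genes, namely C1qa, C1qb, C1qc, C1r, C1s, C2, C3, Cfb, C3ar1 and C5ar1, chosen by name. Each of the 10 was listed in both deposited expression tables, as 11 of 22132 entries in the table that holds control and adenine rats and 11 of 32623 entries in the table that holds sham and UUO rats, because Cfb had 2 entries in each. RNA was sequenced from kidneys of 12 male Sprague-Dawley rats labelled as wild type, which were 8 weeks old when purchased and formed 4 groups of 3. Rats of the adenine group received adenine by gavage daily for 3 weeks to induce renal fibrosis, and rats of the control group received saline. In the UUO group the left ureter was ligated (unilateral ureteral obstruction) and kidneys were collected 2 weeks later, and the sham group had surgery without ligation. All 12 samples were labelled as kidney and no cell type was isolated, so each value is an average over the cell types of the tissue, and each rat gave 1 sample. The tissue label was checked on nephron markers, and 8 proximal tubule genes summed to 1557 to 2773 FPKM in control rats and 2383 to 2957 FPKM in sham rats.

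Complement is a cascade of plasma and tissue proteins that marks targets and recruits leukocytes. The classical pathway starts when C1q, built from the products of C1qa, C1qb and C1qc, binds a target and activates the proteases C1r and C1s, which cleave C4 and C2, and the lectin pathway reaches the same step through mannose-binding lectin and ficolins. Factor B, encoded by Cfb, is the counterpart of C2 in the alternative pathway, and both routes cleave C3, the central component. The small fragments C3a and C5a act on the receptors C3ar1 and C5ar1. The liver makes most plasma complement, macrophages are the main source of C1q, and the injured kidney is known to make several components locally.

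Expression was analysed as FPKM, a fragment count divided by transcript length and library size, and the 2 tables were fitted separately because they differ in their entries and in their lowest value, 0 and 0.0001. A gene was called up- or downregulated when its limma Benjamini-Hochberg adjusted p over the whole table was under 0.05 and its log2 fold change of FPKM + 0.1 was at least 2 in size. By this rule 15.7% of the 15029 tested entries were called in the adenine model, 10.7% upward, and 17.4% of the 15043 tested entries in the UUO model, 13.2% upward. Over all tested entries the log2 fold change had a median of 0.30 after adenine and 0.62 after UUO, and median-of-ratios scaling brought these to 0.014 and 0.030. That scaling also changed the split of calls from 1604 up and 756 down to 1311 and 957 after adenine, and from 1980 and 633 to 1248 and 955 after UUO. FPKM summed to 564972 to 582725 in control rats, 468389 to 487770 in adenine rats, 619664 to 630244 in sham rats and 528811 to 539011 in UUO rats. Read numbers are not known for any sample. Values below are given in the order of rats 1, 2 and 3 of each group, and a fold is the ratio of group mean FPKM.

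All 10 complement genes were upregulated in both models by at least 1 entry. In the adenine model 10 of 11 entries were called upward against 10.7% of all tested entries, and their log2 fold change had a median of 4.24. In the UUO model 10 of 10 tested entries were called upward against 13.2% of all tested entries, and their median log2 fold change was 3.84. No tested complement entry was called downward by limma in either model, where 5.03% and 4.21% of all tested entries were. Of the tested complement entries, 0 had a negative log2 fold change. The untested Cfb entry of the UUO table averaged 0.312 FPKM in sham and 0.0994 FPKM in UUO rats, with overlapping groups. The called Cfb entry of each table, and C3ar1 after adenine, were high enough for testing only through the diseased rats. These counts were therefore partly set by the filter on low values. The lowest rat of the model lay above the highest rat of its comparison group for 11 of 11 entries after adenine and 10 of 10 after UUO, an order that 45% and 60% of all tested entries also had. Groups were apart in either direction for 68% and 75.7% of all tested entries. The bases upstream of C1qa, C1qb, C1r and C3 are printed here because these genes open the classical pathway or lie at the centre of the cascade and were upregulated in both models. They are the 250 bases before the annotated start, 5′ to 3′ in the direction of the gene, from RefSeq on the rat build GRCr8, which may not be the build of the deposited tables. They lie at chr5:154419934-154420183 (minus strand) for C1qa, chr5:154407828-154408077 (minus strand) for C1qb, chr4:159098763-159099012 (plus strand) for C1r and chr9:2201340-2201589 (minus strand) for C3. Capitals mark matches to the motifs searched.
C1qa: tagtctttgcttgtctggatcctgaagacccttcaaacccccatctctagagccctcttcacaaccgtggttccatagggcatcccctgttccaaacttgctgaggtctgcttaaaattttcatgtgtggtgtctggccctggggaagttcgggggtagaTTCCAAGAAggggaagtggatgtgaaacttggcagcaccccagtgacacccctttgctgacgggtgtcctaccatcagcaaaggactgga
C1qb: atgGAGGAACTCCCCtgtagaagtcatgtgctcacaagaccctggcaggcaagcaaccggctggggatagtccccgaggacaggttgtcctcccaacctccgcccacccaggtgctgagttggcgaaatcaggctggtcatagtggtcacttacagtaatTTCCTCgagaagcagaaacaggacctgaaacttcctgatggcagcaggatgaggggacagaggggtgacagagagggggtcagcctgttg
C1r: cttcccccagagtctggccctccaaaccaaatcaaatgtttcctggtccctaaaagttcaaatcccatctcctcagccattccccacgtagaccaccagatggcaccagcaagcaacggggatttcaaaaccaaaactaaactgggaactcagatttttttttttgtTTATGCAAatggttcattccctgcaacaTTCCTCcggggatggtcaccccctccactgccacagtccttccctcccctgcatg
C3: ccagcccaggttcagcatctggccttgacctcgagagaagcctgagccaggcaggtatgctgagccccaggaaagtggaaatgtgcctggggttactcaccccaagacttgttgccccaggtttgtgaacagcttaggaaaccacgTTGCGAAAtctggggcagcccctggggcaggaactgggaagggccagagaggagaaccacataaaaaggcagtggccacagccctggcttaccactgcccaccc

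The promoter table held 5 of the 10 genes, these 4 and C3ar1, and 5 motifs were searched on both strands. GAGGAA, a core of sites of the myeloid factor PU.1, was matched upstream of C1qb, at 247 to 242 and in reverse at 90 to 85 bases before the start, and of C1r, in reverse at 55 to 50. It was matched in 23.3% of 33469 rat promoters of this length. TTGCNNAA, a C/EBP motif, was matched at 104 to 97 bases before the start of C3 and in reverse at 83 to 76 before that of C1r, and in 9.22% of all promoters. TTCNNNGAA, the GAS motif of STAT factors, was matched at 90 to 82 bases before the start of C1qa and in 7.67% of all promoters. The NF-kB motif was matched in reverse at 245 to 236 bases before the start of C1qb, overlapping the PU.1 match, and in 6.33% of all promoters. The interferon element ISRE was matched in 0 of the 5 and in 3.41% of all promoters, and C3ar1 held none of the 5 motifs. In RefSeq, C1qb, C1qc and C1qa are neighbours on chromosome 5, C1r and C1s on chromosome 4, C2 and Cfb on chromosome 20, and C5ar1 lies beside C5ar2 on chromosome 1.

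**Figure D1:**
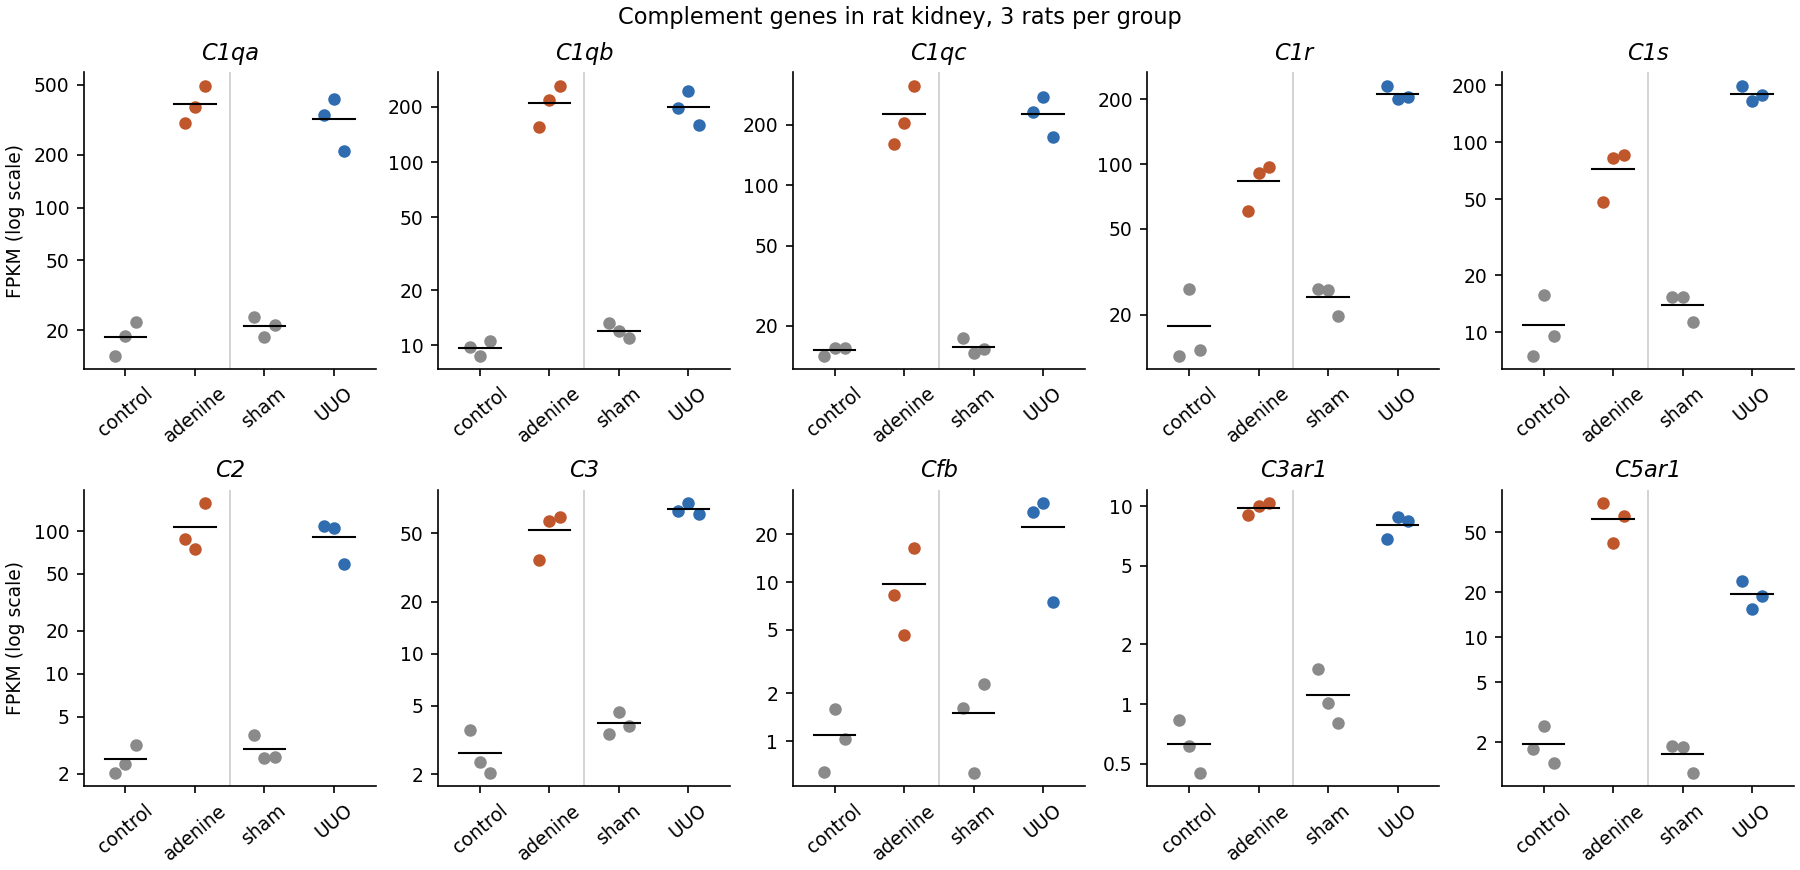
FPKM on a log scale of the 10 complement genes in the 4 groups, with 1 point per rat and a bar at the mean of 3 rats (for Cfb, the summed FPKM of its 2 entries). In every panel the model rats lie above their comparison group, and C1qa reached 304 to 494 FPKM in adenine rats against 14.4 to 22.3 FPKM in control rats.

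The 3 chains of C1q, the recognition molecule of the classical pathway, rose 14.4- to 21.7-fold in both models. C1qa, which encodes the A chain, was at 14.4, 18.6 and 22.3 FPKM in control rats and 304, 376 and 494 FPKM in adenine rats. In sham rats it was at 23.9, 18.4 and 21.4 FPKM and in UUO rats at 336, 416 and 211 FPKM. The lowest diseased kidney held several times more than the highest comparison kidney, and adenine rat 3 and UUO rat 2 were the highest of their groups. The mean of C1qa went from 18.4 ± 3.96 to 391 ± 96.1 FPKM (SD, n = 3 per group) in the adenine model, 21.2-fold, with a log2 fold change of 4.39 (SE 0.23, adjusted p = 3.39e-05 by limma). In the UUO model it went from 21.2 ± 2.76 to 321 ± 104 FPKM, 15.1-fold, with a log2 fold change of 3.87 (SE 0.25, adjusted p = 3.46e-05 by limma). In kidney tissue, more cells of a type and more RNA per cell cannot be told apart, which holds for every gene here.

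C1qb, the B chain, was at 9.79, 8.80 and 10.5 FPKM in control rats and 155, 217 and 261 FPKM in adenine rats. Sham rats held 13.2, 11.9 and 10.9 FPKM and UUO rats 197, 245 and 158 FPKM. The comparison groups were tight, and no rats overlapped in either model. Its log2 fold change was 4.40 (SE 0.20, adjusted p = 2.61e-05 by limma) in the adenine model and 4.03 (SE 0.17, adjusted p = 1.23e-05) in the UUO model, or 21.7-fold and 16.6-fold. C1qc, the C chain, was at 14.2, 15.5 and 15.4 FPKM in control rats and 161, 205 and 313 FPKM in adenine rats. Sham rats held 17.3, 14.6 and 15.3 FPKM of it and UUO rats 231, 274 and 175 FPKM. The order of the diseased rats was the same as for the other chains, rat 3 highest in the adenine group and lowest in the UUO group. The log2 fold change of C1qc was 3.85 (SE 0.23, adjusted p = 5.23e-05 by limma) in the adenine model and 3.82 (SE 0.17, adjusted p = 1.32e-05) in the UUO model.

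Most macrophage markers also rose in both models. Of 10 macrophage genes, 9 were upregulated in the adenine model, with a median log2 fold change of 4.57 over the 10, and 9 in the UUO model, with a median of 3.03. The exception in both models was Mertk, with log2 fold changes of 1.67 and -0.01. Of all tested entries, 10.7% and 13.2% were called upward. Cd163 and Mrc1 in both models, and Cx3cr1 after adenine, were high enough for testing only through the diseased rats. The summed FPKM of the 10 genes was 180.3 to 245 in control, 6491 to 13129 in adenine, 205 to 329 in sham and 1469 to 2166 in UUO rats, and the part of this rise in the C1q values was not tested.

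C1r and C1s, the 2 proteases bound to C1q, rose in both models. C1r was at 12.9, 26.3 and 13.8 FPKM in control rats and 60.8, 91.2 and 97.2 FPKM in adenine rats. It was at 26.4, 26.1 and 19.7 FPKM in sham rats and 231, 201 and 206 FPKM in UUO rats. Control rat 2 stood above its group, adenine rat 1 below its group, and the UUO rats lay close together, without overlap in either model. The adenine rise was 4.70-fold, a log2 fold change of 2.28 (SE 0.31, adjusted p = 0.000997 by limma), which median-of-ratios scaling brought to 1.98, under the threshold of 2. The UUO rise was 8.82-fold, a log2 fold change of 3.15 (SE 0.13, adjusted p = 1.26e-05 by limma).

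C1s was at 7.54, 15.8 and 9.58 FPKM in control rats and 48.6, 82.4 and 85.9 FPKM in adenine rats. Sham rats had 15.3, 15.4 and 11.3 FPKM of C1s and UUO rats 199, 164 and 177 FPKM. The pattern over rats matched that of C1r, with control rat 2 and UUO rat 1 again the highest of their groups. Its log2 fold change was 2.73 (SE 0.33, adjusted p = 0.000572 by limma) in the adenine model and 3.69 (SE 0.14, adjusted p = 1.09e-05) in the UUO model, or 6.59-fold and 12.9-fold. Fibroblast markers also rose in both models. Of these, 4 of 6 tested genes were upregulated after adenine and 6 of 7 after UUO, against 10.7% and 13.2% of all tested entries. Lum could be tested after UUO only through the UUO rats. The summed FPKM of the fibroblast markers was 64.4 to 102 in control and 522 to 729 in adenine rats. It was 65.9 to 76.8 in sham and 1018 to 2385 in UUO rats. Their part in the C1r and C1s values was not tested.

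C2, the substrate of C1s whose fragment forms the classical C3 convertase with C4, had the largest ratio of group mean FPKM of the 10 genes in each model. It was at 2.03, 2.32 and 3.19 FPKM in control rats and 88.0, 74.8 and 157 FPKM in adenine rats. UUO rats had 108, 105 and 58.4 FPKM, against 3.73, 2.58 and 2.63 FPKM in sham rats. Adenine rat 3 was the highest and UUO rat 3 the lowest of its group, and both groups were far from their comparison rats. C2 went from 2.51 ± 0.604 to 107 ± 44.3 FPKM in the adenine model, 42.5-fold, with a log2 fold change of 5.30 (SE 0.30, adjusted p = 4.66e-05 by limma). In the UUO model it went from 2.98 ± 0.652 to 90.5 ± 27.9 FPKM, 30.4-fold, with a log2 fold change of 4.85 (SE 0.27, adjusted p = 2.27e-05 by limma).

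C3, where all pathways meet, rose in both models. Control rats held 3.58, 2.35 and 2.04 FPKM of C3 and adenine rats 35.0, 58.7 and 62.3 FPKM. Sham rats held 3.40, 4.60 and 3.83 FPKM and UUO rats 67.3, 75.1 and 64.9 FPKM. The UUO rats were tightly grouped, whereas adenine rat 1 lay below its group. The rise was 19.6-fold in the adenine model, a log2 fold change of 4.24 (SE 0.29, adjusted p = 7.29e-05 by limma), and 17.5-fold in the UUO model, a log2 fold change of 4.11 (SE 0.13, adjusted p = 6.32e-06).

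Cfb, which encodes factor B, was split over 2 entries in each table, and the entries could not be matched across tables by name. In the adenine table the first entry was at 0.639, 1.03 and 0.600 FPKM in control rats and 1.21, 1.06 and 2.28 FPKM in adenine rats, with a log2 fold change of 0.87 (SE 0.36, adjusted p = 0.0725 by limma) that did not pass. The second entry was listed at 0, 0.563 and 0.426 FPKM in control rats and 7.07, 3.58 and 14.1 FPKM in adenine rats, and was called with a log2 fold change of 4.46 (SE 0.81, adjusted p = 0.00342 by limma). Both entries were higher in every adenine rat than in every control rat, but the first only narrowly. In the UUO table the first entry was at 1.51, 0.0001 and 2.08 FPKM in sham rats, where 0.0001 is the lowest value of the table, and 27.5, 31.5 and 7.42 FPKM in UUO rats. It was called with a log2 fold change of 4.73 (SE 1.21, adjusted p = 0.0111 by limma), which moved to an adjusted p of 0.0763 when entries with low values were kept in the fit. The second entry there was at 0.106, 0.632 and 0.198 FPKM in sham rats and 0.170, 0.0114 and 0.117 FPKM in UUO rats, too low to be tested, and the groups overlapped.

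Summed over its entries, Cfb was at 0.639, 1.60 and 1.03 FPKM in control rats and 8.28, 4.64 and 16.4 FPKM in adenine rats, 8.97-fold higher by the means. The sums were 1.61, 0.632 and 2.28 FPKM in sham rats and 27.7, 31.5 and 7.54 FPKM in UUO rats, 14.7-fold higher. Diseased rats spread more for Cfb than for its paralog C2, and UUO rat 3 stood well below the other UUO rats. The log2 fold change of the sum, an analysis added after the entries had been seen, was 2.95 (SE 0.50, adjusted p = 0.00254 by limma) in the adenine model and 3.71 (SE 0.65, adjusted p = 0.00204) in the UUO model.

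The receptors for C3a and C5a rose in both models. C3ar1, the C3a receptor, was at 0.827, 0.612 and 0.449 FPKM in control rats and 9.01, 10.1 and 10.4 FPKM in adenine rats. Sham rats had 1.50, 1.02 and 0.803 FPKM and UUO rats 6.79, 8.85 and 8.41 FPKM. The adenine rats were closely grouped and lay just above all UUO rats, although the tables were scaled separately. C3ar1 was 15.6-fold higher in the adenine model, with a log2 fold change of 3.80 (SE 0.23, adjusted p = 5.18e-05 by limma). In the UUO model it was 7.26-fold higher, with a log2 fold change of 2.78 (SE 0.25, adjusted p = 0.000109 by limma).

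C5ar1, the C5a receptor of myeloid cells, was at 1.79, 2.56 and 1.44 FPKM in control rats and 78.6, 42.3 and 64.2 FPKM in adenine rats. UUO rats had 23.7, 15.4 and 18.8 FPKM of C5ar1, against 1.89, 1.85 and 1.25 FPKM in sham rats. Adenine rat 1, the lowest adenine rat for 7 of the 10 genes, was the highest for C5ar1. The log2 fold change was 4.92 (SE 0.29, adjusted p = 4.76e-05 by limma) in the adenine model and 3.46 (SE 0.22, adjusted p = 3.61e-05) in the UUO model, or 32.0-fold and 11.6-fold. Of the neutrophil markers, 3 of 3 tested genes were called upward after adenine and 4 of 4 after UUO. Of all tested entries, 10.7% and 13.2% were called upward. Among the neutrophil markers, all but S100a9 after adenine were high enough for testing only through the diseased rats. Their counts were therefore largely set by the filter. Of the untested markers, Mpo and Elane overlapped between groups in both models and Mmp8 after adenine, whereas Cxcr2 after adenine and Mmp8 after UUO were higher. The summed FPKM of the 7 listed markers was 1.14 to 2.55 in control, 14.1 to 26.8 in adenine, 0.304 to 1.59 in sham and 6.97 to 38.3 in UUO rats. Their part in the receptor values was not tested.

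**Figure D2:**
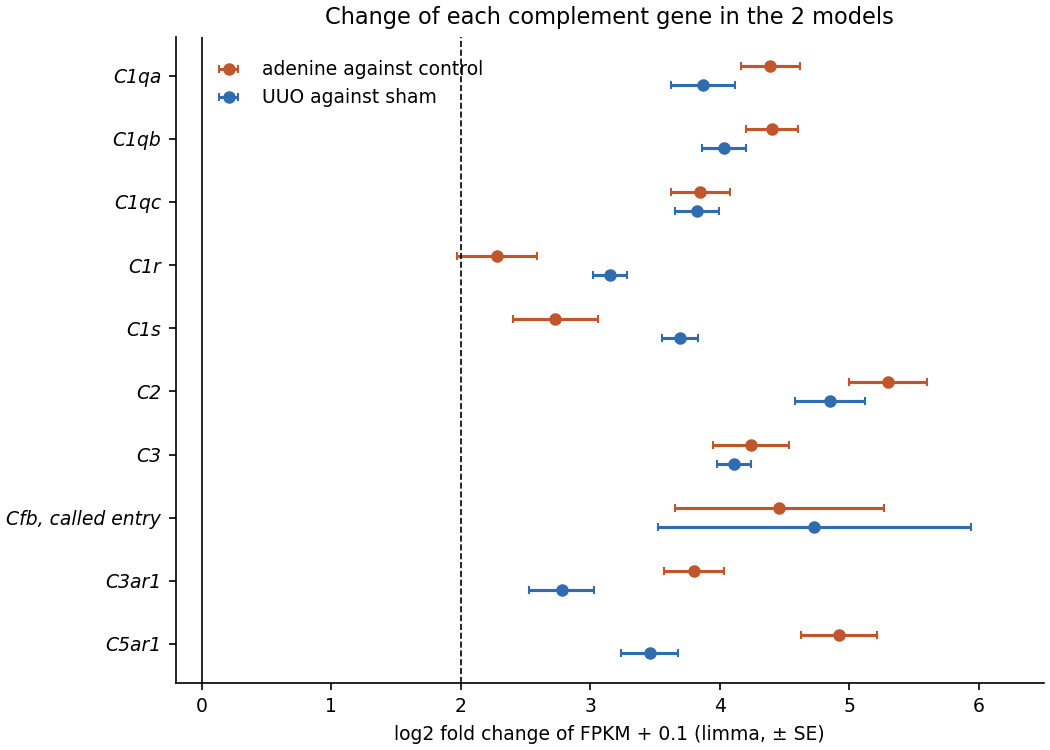
Log2 fold change of FPKM + 0.1 for each complement gene in the adenine model (orange, against control) and the UUO model (blue, against sham), with bars of 1 standard error by limma and a dashed line at the threshold of 2 (for Cfb, the called entry of each table). C5ar1 and C3ar1 lay further right in the adenine model, at 4.92 and 3.80 against 3.46 and 2.78, and C1r and C1s further right in the UUO model, at 3.15 and 3.69 against 2.28 and 2.73.

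The change in the adenine model was compared with that in the UUO model for the 9 genes with a single entry. The difference of the 2 log2 fold changes was divided by the root of the summed squared standard errors, and p-values were adjusted over 13486 genes, of which 27% had an adjusted p under 0.05, 5.25% with the larger rise or smaller fall in the adenine model, and 2.88% also differed by at least 2. C5ar1 rose more in the adenine model, by 1.46 on the log2 scale (SE 0.36, adjusted p = 0.0111 from the limma fits, 95% interval 0.67 to 2.24). C3ar1 also rose more there, by 1.01 (SE 0.34, adjusted p = 0.0404 from the limma fits, 95% interval 0.29 to 1.74). C5ar1 kept an adjusted p under 0.05 in 18 of 18 alternative settings, from 0.00412 to 0.0327, and C3ar1 in 7 of 18, from 0.0148 to 0.0975, losing it when any of 10 single libraries was left out, each but control rat 1 and sham rat 3. The 2 of 9 genes with an adjusted p under 0.05 are a share near the 27% of all genes compared. By both thresholds 0 of the 9 genes differed, and 4 of 9 had an unadjusted p under 0.05.

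C1r and C1s were the other 2 of these 4, with smaller changes in the adenine model by -0.87 (SE 0.34, adjusted p = 0.0712, 95% interval -1.60 to -0.14) and -0.95 (SE 0.36, adjusted p = 0.0629, 95% interval -1.72 to -0.18) from the limma fits. Without control rat 1 their adjusted p was 0.0472 and 0.0297, and without control rat 2 it was 0.138 and 0.146. For C1qa the difference was 0.53 (adjusted p = 0.257, 95% interval -0.19 to 1.25), for C1qb 0.37 (0.301, -0.18 to 0.93) and for C1qc 0.03 (0.952, -0.59 to 0.65), all from the limma fits. C2 differed by 0.46 (adjusted p = 0.427, 95% interval -0.42 to 1.33) and C3 by 0.13 (adjusted p = 0.79, 95% interval -0.56 to 0.82) from the limma fits. For the C1q chains, C2 and C3 the intervals held 0 and also differences of up to 0.65 to 1.33, so equal changes were not shown.

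**Figure D3:**
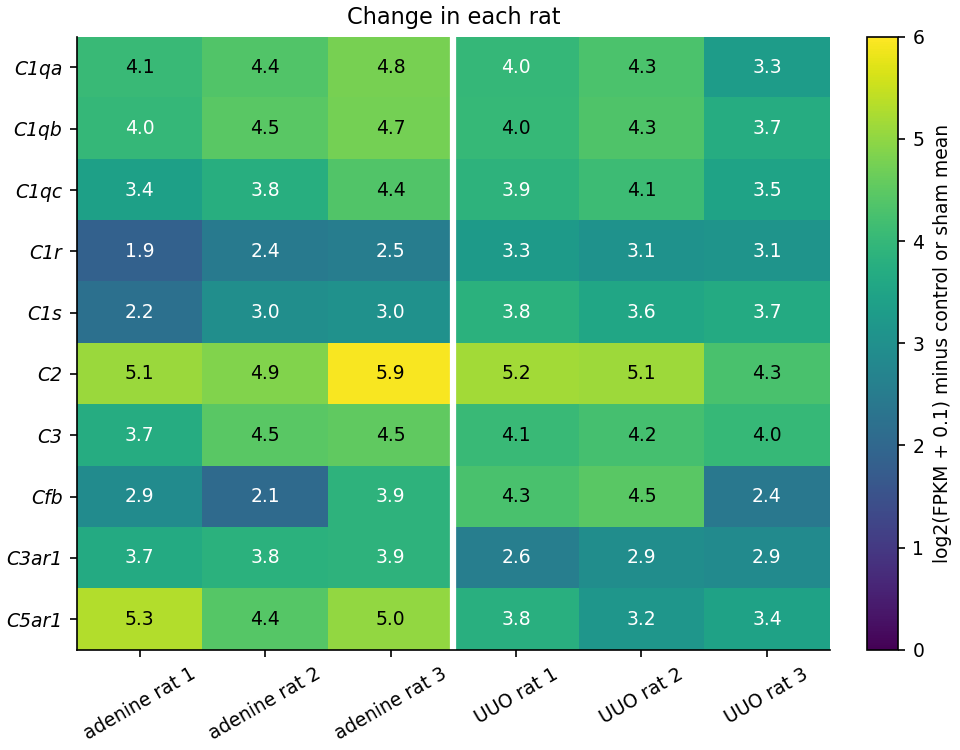
Log2(FPKM + 0.1) of each complement gene in each adenine and UUO rat minus the mean of the control or sham rats, as a colour and a printed value (Cfb summed over its entries). Every value is above 0, adenine rat 3 has the highest adenine value for every gene but C5ar1, and UUO rat 3 is the lowest UUO rat for 6 genes.

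Rats of a group differed in a way that many of the genes shared. Adenine rat 3 was the highest of its group for 9 of the 10 genes and adenine rat 1 the lowest for 7. UUO rat 3 was the lowest for 6 genes, C1qa, C1qb, C1qc, C2, C3 and Cfb, and the highest for 0. The summed macrophage markers were 2166, 2038 and 1469 FPKM in UUO rats 1, 2 and 3 and 13129, 6491 and 9757 FPKM in the adenine rats. These sums are mostly Lyz2, and the mean log2(FPKM + 0.1) of the 10 markers gave another order of the rats, at 5.05, 4.74 and 4.87 in the UUO group and 5.91, 5.81 and 5.95 in the adenine group. Among comparison rats, control rat 2 was highest for C1r and C1s and sham rat 1 was highest for 7 of the 10 genes.

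FPKM is per transcript length, so levels could be ordered within a group. In control rats C1qa, C1r, C1qc, C1s and C1qb led in this order, each overlapping its neighbours, followed after a gap by C3, C2, C5ar1, Cfb and C3ar1. In adenine rats the order was C1qa, C1qc, C1qb, C2, C1r, C1s, C5ar1 and C3, again with overlap between neighbours, and then, without overlap, C3ar1 and Cfb. Sham rats had C1r and C1qa first, then C1qc, C1s and C1qb, then C3 and C2, then C5ar1, Cfb and C3ar1, with overlap inside these 4 sets and none between them. In UUO rats C1qa, C1qc, C1r, C1qb and C1s overlapped as neighbours, above C2 and C3, then Cfb and C5ar1, then C3ar1. C2 thus stood below C3 in the control and sham groups by mean FPKM and above it in the adenine and UUO groups, with overlapping ranges in the control, sham and UUO groups.

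Proportions within a sample do not depend on a common scaling of the sample, and 14 of them were compared by exact two-sided permutation tests, which cannot go below p = 0.1 with 3 rats against 3. C1qc made up 37.0%, 36.2% and 31.9% of the summed C1q FPKM in control rats and 26.0%, 25.7% and 29.3% in adenine rats. The groups did not overlap, at 35.0 ± 2.70% and 27.0 ± 1.99% (exact p = 0.1, adjusted 0.2). C1qa had the complementary share, 37.5%, 43.3% and 46.2% in control rats and 49.0%, 47.1% and 46.3% in adenine rats (exact p = 0.1, adjusted 0.2), where the lowest adenine rat barely exceeded control rat 3. In the UUO model the means of the shares were 43.3% and 42.4% for C1qa, 24.6% and 27.0% for C1qb and 32.1% and 30.6% for C1qc, with overlapping groups and exact p of 0.7, 0.3 and 0.3.

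**Figure D4:**
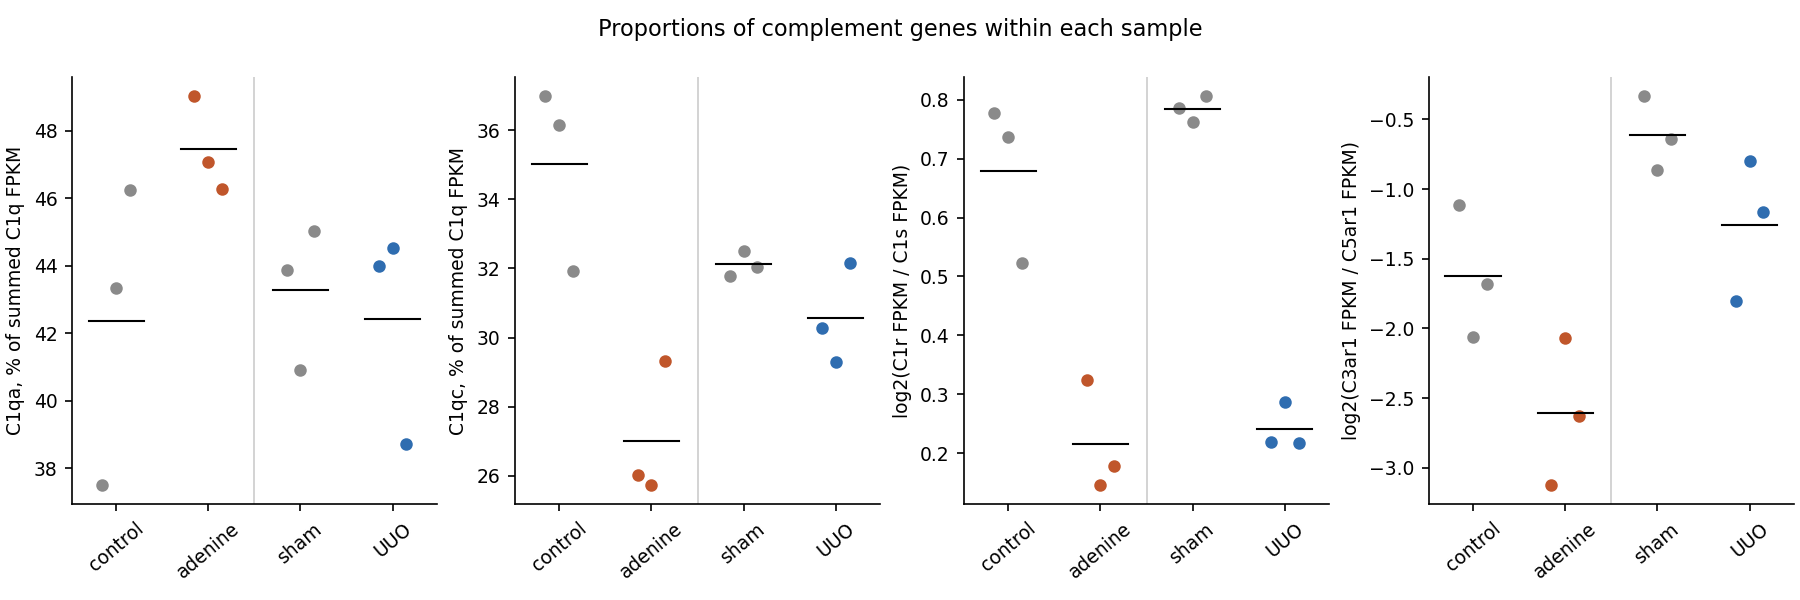
Share of C1qa and of C1qc in the summed C1q FPKM (percent) and log2 ratios of C1r to C1s and of C3ar1 to C5ar1 FPKM, with 1 point per rat and a bar at the mean of 3 rats in each group. The C1r to C1s ratio was lower in every adenine and UUO rat, at 0.15 to 0.32, than in every control and sham rat, at 0.52 to 0.81.

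C1r was also set against C1s, its partner in the C1 complex. The log2 ratio of C1r to C1s FPKM was 0.78, 0.74 and 0.52 in control rats and 0.32, 0.15 and 0.18 in adenine rats. It was 0.79, 0.76 and 0.81 in sham rats and 0.22, 0.29 and 0.22 in UUO rats. The groups were apart in both models, with differences of -0.46 and -0.54, and each reached the smallest exact p of 0.1 (adjusted 0.2). The log2 ratio of C3ar1 to C5ar1 averaged -1.62 in control and -2.61 in adenine rats (exact p = 0.1, adjusted 0.2), and -0.61 in sham and -1.26 in UUO rats, which overlapped (exact p = 0.2). For C3 against summed Cfb the log2 ratio averaged 1.34 and 2.56 in the control and adenine groups and 1.56 and 1.88 in the sham and UUO groups, with exact p of 0.3 and 0.5.

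The summed C1q FPKM was also set against the summed macrophage markers. The log2 ratio averaged -2.27 in control and -3.54 in adenine rats, a difference of -1.27, and -2.49 in sham and -1.35 in UUO rats, a difference of 1.14 (exact p = 0.1 in each, adjusted 0.2). Lyz2, the lysozyme gene of myeloid cells, made up 80.5% to 93.9% of the marker sum in every rat. In a ratio without Lyz2, added after its share had been seen, the adenine difference was -0.112 (exact p = 1.0) and the UUO difference 1.09 (exact p = 0.1). Without this 1 marker the adenine rats overlapped the control rats, and the UUO rats still lay above all sham rats.

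The remaining complement system was described with 42 further genes, of which 33 were tested after adenine and 32 after UUO. In the adenine model 17 were upregulated and 1 downregulated, and the median of the tested genes was 2.51 on the log2 scale. In the UUO model 18 were upregulated and 1 downregulated, with a median of 2.33, and this split was 12 and 3 with median-of-ratios scaling and 12 and 4 with quantile normalization. With median-of-ratios scaling Colec12, Cd46, C5ar2, Itgax, Itgb2 and Cd93 came to log2 fold changes of 1.48 to 1.97 in the UUO model, under the threshold, and Colec11 and C8g came past -2. The 10 complement genes came to 1.98 to 5.01 after adenine with that scaling, leaving out the uncalled Cfb entry, and to 2.21 to 4.25 after UUO. The shares called upward were above the 10.7% and 13.2% of all tested entries, as for the 10 genes above. These counts were partly set by the filter on low values. Fcna, C6, Cfi and Itgam were high enough for testing only through the diseased rats in both models. So were C4bpa, C5ar2 and Vsig4 after adenine, and C4a, C4b, Fcnb, Cfd and Cd46 after UUO.

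**Figure D5:**
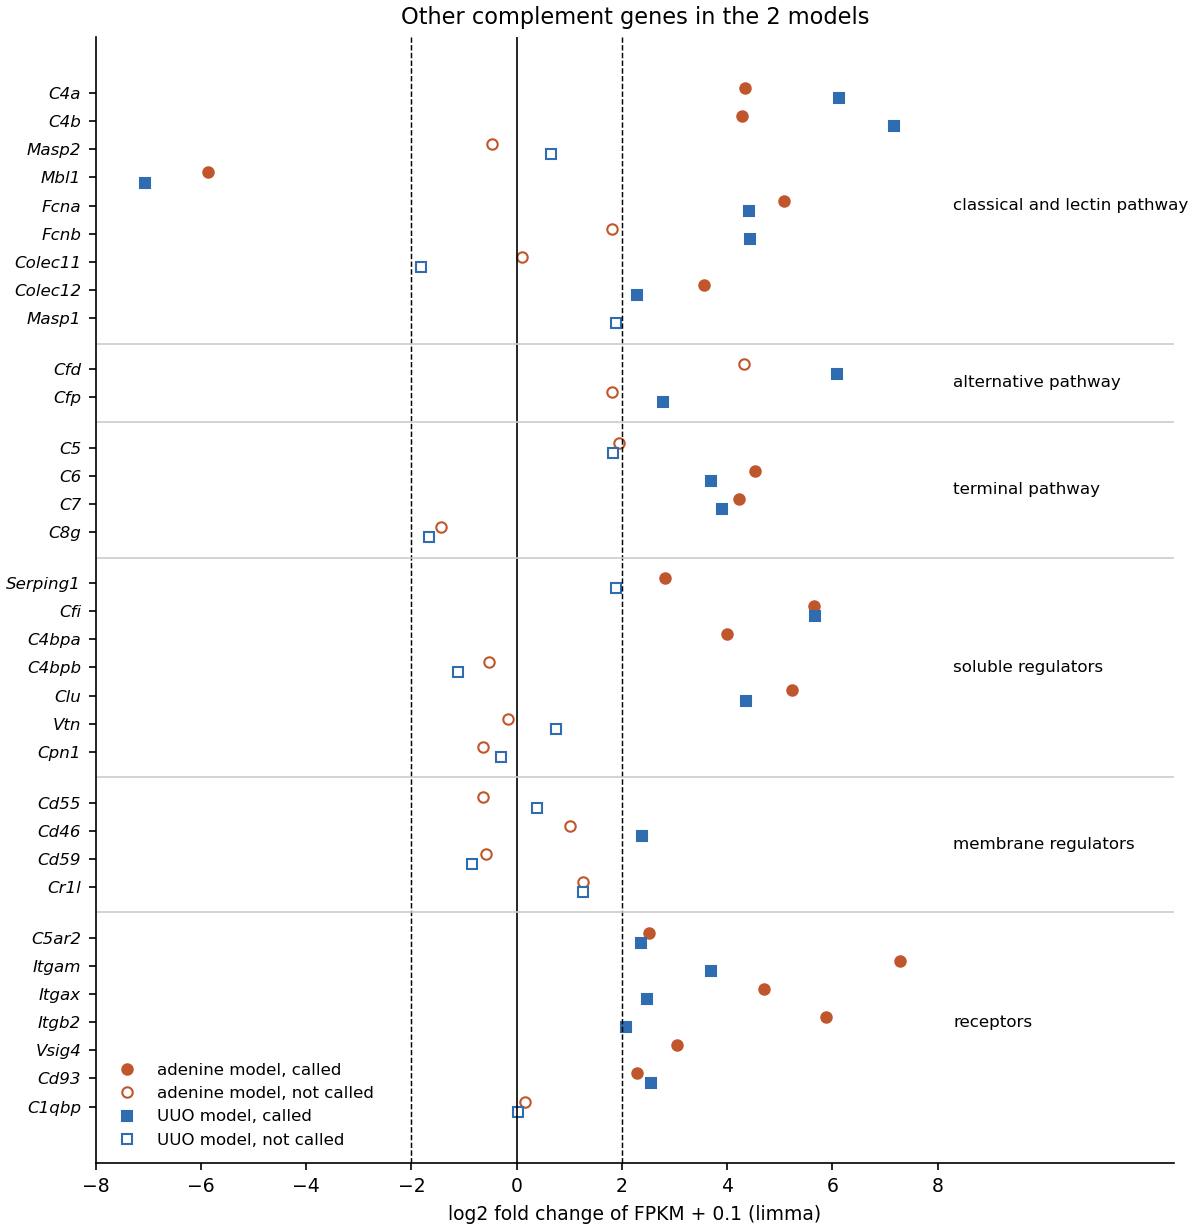
Log2 fold change of FPKM + 0.1 of other complement genes tested in either model, by role, with filled symbols for genes that passed both thresholds and dashed lines at -2 and 2. Mbl1 lies alone at the left, at -5.86 and -7.07, and the membrane regulators lie between -0.84 and 2.38.

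C4, the partner of C2, is encoded by the near-identical genes C4a and C4b, whose separate values are therefore uncertain. C4b was at 3.04, 1.62 and 2.39 FPKM in control rats and 49.9, 28.9 and 68.4 FPKM in adenine rats, and at 1.83, 0.368 and 0.662 FPKM in sham rats and 140, 140 and 106 FPKM in UUO rats. Every diseased rat was far above its comparison group. Its log2 fold change was 4.28 (adjusted p = 0.00014 by limma) in the adenine model and 7.18 (adjusted p = 4.05e-05) in the UUO model. The difference of -2.90 between the models (adjusted p = 0.00418 from the limma fits) passed both thresholds. C4a had log2 fold changes of 4.34 and 6.12 (adjusted p = 0.00117 and 0.000653 by limma). In the lectin pathway, Mbl1, the mannose-binding lectin A gene, went from 20.4 ± 4.16 to 0.304 ± 0.226 FPKM in the adenine model and from 24.0 ± 7.35 to 0.0850 ± 0.0737 FPKM in the UUO model, and was the only downregulated gene of the list in either. The ficolin gene Fcna and the scavenger collectin Colec12 rose in both models, by log2 fold changes of 5.08 and 3.57 after adenine and 4.42 and 2.28 after UUO. Fcnb, another ficolin gene, was called in the UUO model alone, at 30.2, 20.5 and 2.28 FPKM against 0.512, 0.568 and 0.266 FPKM in sham rats. The initiating protease Masp2 had log2 fold changes of -0.47 and 0.66 and was not called in either model.

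In the alternative pathway, properdin, the stabiliser of the C3 convertase encoded by Cfp, was at 26.6, 25.5 and 25.3 FPKM in adenine rats against 7.67, 6.39 and 7.88 FPKM in control rats. In UUO rats it was at 43.7, 36.3 and 34.8 FPKM against 5.05, 4.25 and 7.33 FPKM in sham rats. All diseased rats were higher, and the log2 fold change passed the threshold of 2 in the UUO model, at 2.79, but not in the adenine model, at 1.81. Among the genes of the membrane attack complex, C6 rose by log2 fold changes of 4.53 and 3.70 in the adenine and UUO models and C7 by 4.23 and 3.91. C7 reached 80.6, 218 and 180 FPKM in adenine rats and 206, 203 and 260 FPKM in UUO rats, from at most 13.7 and 22.6 FPKM in control and sham rats. C5, the source of C5a, had mean FPKM of 4.09 and 16.8 in control and adenine rats and 8.21 and 29.6 in sham and UUO rats, log2 fold changes of 1.95 and 1.84 that were under the threshold of 2. C8g had log2 fold changes of -1.43 and -1.67, also not called. C8b and C9 stayed at or under 0.407 FPKM in all rats of both tables, and so did C8a in the sham and UUO table.

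Of the soluble regulators tested, 5 of 8 were called upward after adenine and 3 of 7 after UUO, against 10.7% and 13.2% of all tested entries. The log2 fold change was above 0 for 5 of 8 and 5 of 7. Clu, which encodes clusterin, went from a mean of 46.4 to 1740.4 FPKM in the adenine model and from 76.1 to 1562 FPKM in the UUO model, log2 fold changes of 5.23 and 4.36 (adjusted p = 5.49e-05 and 5.53e-06 by limma). Cfi, the protease that inactivates C3b and C4b, rose by 5.65 and 5.67 on the log2 scale after adenine and UUO. It could be tested only through the diseased rats. Serping1, the inhibitor of C1r and C1s, went from a mean of 75.1 to 512 FPKM in the adenine model, a called log2 fold change of 2.82, and from 85.7 to 308 FPKM in the UUO model, where 1.89 was under the threshold. C4bpa, a chain of the C4b-binding protein, was listed at 0 in the 3 control rats and at 2.13, 0.654 and 2.27 FPKM in adenine rats. It was called in the adenine model, where it could be tested only through the adenine rats. Of 4 membrane regulators tested, 0 were called by limma after adenine, where 3 had an adjusted p under 0.05 but a smaller fold change than the threshold, and 1 was called after UUO. Cr1l, a regulator of C3 convertases, had mean FPKM of 25.1 and 60.4 in control and adenine rats and 30.0 and 72.0 in sham and UUO rats, a log2 fold change of 1.26 in each model (adjusted p = 0.000225 and 3.71e-05 by limma). Cd59, which blocks the membrane attack complex, had mean FPKM of 141 and 94.4 in control and adenine rats and 168 and 94.0 in sham and UUO rats, log2 fold changes of -0.59 and -0.84 that were not called. Cd46 was the gene called after UUO, at a log2 fold change of 2.38 from a mean of 0.208 to 1.46 FPKM. It could be tested there only through the UUO rats, and median-of-ratios scaling brought it to 1.9, under the threshold.

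Most other complement receptors rose as well. Of those tested, 6 of 7 were upregulated after adenine and 5 of 6 after UUO, against 10.7% and 13.2% of all tested entries. Itgam in both models, and C5ar2 and Vsig4 after adenine, were high enough for testing only through the diseased rats. These counts were therefore partly set by the filter. Itgb2, the shared beta chain of complement receptors 3 and 4, was at 3.76, 5.59 and 5.19 FPKM in control rats and 440, 170 and 318 FPKM in adenine rats, and at 7.40, 5.69 and 5.48 FPKM in sham rats and 30.9, 21.0 and 27.6 FPKM in UUO rats. The UUO rats lay above sham rats but far below adenine rats, although the tables were scaled separately. Itgb2, Itgam and Itgax, the 3 chains of these receptors, had log2 fold changes of 5.88, 7.28 and 4.71 after adenine and 2.08, 3.70 and 2.48 after UUO. The differences of 3.81, 3.58 and 2.22 passed both thresholds (adjusted p = 7.39e-05, 0.000119 and 0.000856 from the limma fits). C5ar2, the second C5a receptor and the neighbour of C5ar1, had log2 fold changes of 2.51 and 2.37. Cd93 rose by 2.28 and 2.56, and C1qbp had log2 fold changes of 0.15 and 0.03. Vsig4, a receptor for C3 fragments, was listed at 0 in the control rats and at 0.556, 0.510 and 1.33 FPKM in adenine rats. In the UUO model Vsig4 was too low to be tested, and the groups overlapped.

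Markers of the liver cells that make plasma complement stayed low. The albumin gene Alb averaged at most 0.503 FPKM in any group, and the 7 listed hepatocyte genes summed to 7.81 to 11.0, 5.39 to 9.36, 7.68 to 9.74 and 2.10 to 4.47 FPKM in control, adenine, sham and UUO rats. Of the hepatocyte genes, 1 was tested after adenine and not called. Of the 2 tested after UUO, Apoc3 was downregulated and Apoa1 had a log2 fold change of 1.61. Serpina1, too low to be tested, was higher in every diseased rat than in its comparison group. Its mean FPKM was 0.0367 and 0.462 in control and adenine rats and 0.0388 and 0.497 in sham and UUO rats. T cell markers were called upward for 3 of 6 genes after adenine and 6 of 6 after UUO, against 10.7% and 13.2% of all tested entries. Their sums were 8.80 to 15.0, 115 to 123, 13.7 to 20.6 and 121 to 263 FPKM in the same order. Cd4 was the largest part of the sums in diseased rats, at 104, 79.7 and 98.1 FPKM in adenine and 92.3, 72.8 and 121 FPKM in UUO rats. Cd3d, Cd2 and Cd8a had log2 fold changes of 1.66, 1.58 and 1.49 after adenine, under the threshold of 2. The called genes Cd3e, Cd3g and Cd4 had 2.23, 2.10 and 4.31 there, so the sums after adenine mostly follow Cd4. Endothelial markers summed to 101 to 134, 39.8 to 59.0, 112 to 125 and 194 to 218 FPKM, with 0 of 5 called by limma after adenine, where 4 had an adjusted p under 0.05 but a smaller fold change than the threshold, and 1 of 5, upward, after UUO. Of the nephron markers, 4 of 8 proximal tubule genes were downregulated after adenine and 5 of 8 after UUO. Of 6 genes of other nephron segments, 1 was downregulated after adenine and 4 after UUO. Among all tested entries, 5.03% and 4.21% were called downward. The part of these cell types in the complement values was not tested.

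Genes with the most similar profiles were sought by the root mean square difference of log2(FPKM + 0.1) over the 12 samples, each table centred on its control or sham mean. For C1qa, over 13485 other genes, the nearest were C1qb at 0.188, C1qc at 0.308, Mnda at 0.311, Col15a1 at 0.312 and LOC100364435 at 0.347. For C3 they were C1qb at 0.258, Col15a1 at 0.283, AABR07006310 at 0.302, Mnda at 0.312 and Islr2 at 0.340. The summed Cfb had more distant neighbours, Cxcl17 at 0.469, Flnc at 0.498, Lgals3bp at 0.501, Sp100 at 0.514 and Irgm at 0.547. These distances are descriptions over 2 tables with 1 library per rat, and rats of a table share their scaling.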

How the data were processed

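Poly(A) RNA of 12 kidneys was sequenced and the authors deposited FPKM per gene in 2 tables, one per model. The submitters' processing notes name cutadapt 1.9, HISAT2 2.0.4, StringTie 1.3.4d, edgeR and DESeq2. The genome build is not given in the sources used here. The authors' own fold changes and p-values were not used. Read counts were not used here, and a common step between low FPKM values was shared by 0.305% to 0.991% of genes in the adenine table and 1.90% to 5.45% in the UUO table, so depth is unknown and only the spread between 3 rats gives the precision.

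Entries that reached an FPKM of 0.5 in 3 or more of 6 samples were fitted as log2(FPKM + 0.1) with limma 3.58.1 (lmFit, eBayes with a trend) in R 4.3.3, which understates changes of low genes, with Benjamini-Hochberg adjustment over each table. Other steps used Python 3.11.15, numpy 2.4.6, pandas 2.3.3, scipy 1.17.1 and matplotlib 3.10.9. The difference between models used a t distribution with the degrees of freedom of both fits added and treats the tables as independent. The named genes were the 10 complement genes, those of 42 further complement genes called in either model, uncalled ones with separate groups, and the 5 nearest profiles of C1qa, C3 and Cfb. A few others were named after their values had been seen, and some genes that the lists take in and count are not reported here by name. The members, lists and motifs were chosen with earlier results of these data known. The fits were tested on simulated data. Alternatives were other pseudocounts, filters and scalings, eBayes without the trend, a replicate block and leaving out each rat.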

Additional observations from a re-analysis of the deposited data

Results flagged for a closer look

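The rise of 2 receptors differed between the models by the test of the difference itself, in 3 against 3 rats per model. These are 2 of the 9 genes compared, a share near the 27% of all 13486 genes with an adjusted p under 0.05. C5ar1 rose more in the adenine model by 1.46 on the log2 scale, and C3ar1 by 1.01. C5ar1 stayed between 1.26 and 1.91 over 18 alternative settings, each with an adjusted p under 0.05. C3ar1 ranged from 0.63 to 1.31 and passed in 7 of the 18. Macrophage and neutrophil markers also rose in both models, and their part was not tested.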

How the results depend on the processing

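With an adjusted p under 0.05 as the only threshold, 2 of the 9 genes differed between the models, near the 27% of all genes compared, against 0 with both thresholds. The number of called complement entries was 10 in each model and stayed at 9 to 10 over 15 settings per model, and at 10 whenever 1 rat was left out. It was 9 in the adenine model with median-of-ratios scaling, where C1r fell to 1.98, and 9 in the UUO model with quantile normalization, where C3ar1 fell to just under 2, and without the filter, where Cfb had an adjusted p of 0.0763. The count of other complement genes called, 18 and 19, ranged from 15 to 25 after adenine and 15 to 27 after UUO, and from 18 to 19 and 18 to 21 when 1 rat was left out. Leaving out 1 rat moved the UUO minus sham difference of the C1qa share, -0.864 percentage points, between -2.05 and 0.976 (0.976 without UUO rat 3 and 0.0183 without sham rat 3). It moved the log2 C3 to Cfb difference, 0.318, between -0.295 and 0.969 (-0.295 without UUO rat 3 and -0.0893 without sham rat 3), so neither direction is firm. The labels do not say that replicate numbers pair the rats, and the main fits did not use them as pairs. Samples sharing a number correlated at -0.123 to -0.049 in the adenine table. In the UUO table they correlated at 0.050 to 0.105, and each sample there correlated best with its own number, so a weak pairing is not excluded. With a replicate block 10 complement entries were called in each model, 19 and 19 other complement genes, and 0 differences between models, with adjusted p of 0.0807 for C3ar1, 0.03 for C1r and 0.0151 for C1s. The unknown depth leaves the error of low values, such as those of Cfb, to the spread between 3 rats.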

Other observations

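Cfd, which encodes factor D, the protease that cleaves factor B, was high in 1 rat of each model. It was at 5.08, 0.0410 and 4.44 FPKM in control rats and 171, 13.6 and 11.1 FPKM in adenine rats, a log2 fold change of 4.32 (SE 1.64, adjusted p = 0.0582 by limma). Sham rats held 0.612, 0.214 and 0.0315 FPKM of Cfd and UUO rats 110.1, 9.54 and 8.38 FPKM, a log2 fold change of 6.08 (SE 1.09, adjusted p = 0.00227 by limma). Rat 1 was far above the others in both the adenine and the UUO group, and the groups did not overlap in either model.

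Properdin, Masp2 and Cd46 were further complement genes whose change differed between the models by the adjusted p alone. Of all 13486 genes compared, 27% had an adjusted p under 0.05 from the limma fits, 21.7% with the larger rise or smaller fall in the UUO model. These 3 genes are therefore not set apart from the other genes by this threshold. The adenine minus UUO differences of the log2 fold changes were -0.99 for Cfp (adjusted p = 0.00965), -1.14 for Masp2 (adjusted p = 0.029) and -1.37 for Cd46 (adjusted p = 0.0266), from the limma fits.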
